A study of Mus musculus with 12 samples.

Results

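Messenger RNA of 10 chemokine genes was followed through 12 mouse liver RNA-seq libraries. The genes were taken by name: Cxcl1, Cxcl2, Cxcl9, Cxcl10 and Cxcl13, which are 5 CXC genes, and Ccl2, Ccl3, Ccl4, Ccl6 and Ccl7, which are 5 CC genes. All 10 were found among the 47263 genes of the deposited table.

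The livers came from mice that lacked Sirt2, a deacetylase that uses NAD, in their hepatocytes (KO) and from wild-type mice (WT). Plasmids were forced into the liver through a tail vein by hydrodynamic injection at 6 to 8 weeks of age, and livers were taken 8 weeks later. The protocol describes a mix for the liver cancer model called MET/CAT: the MET receptor and a shortened, stabilised beta-catenin (DN90), each behind an EF1a promoter in a Sleeping Beauty transposon, with the transposase plasmid. The controls are labelled GFP, and their plasmid mix is not described further. The libraries form 4 groups of 3 replicates: KO MET/CAT, WT MET/CAT, KO GFP and WT GFP. Hydrodynamic delivery reaches a scattered subset of hepatocytes, so each library holds RNA of transfected and untransfected cells together with every other cell of the liver. The treatment field of the labels runs with genotype and goes against the sample titles, and the groups here follow the titles. The line that drives the Sirt2 deletion is not named in the labels, and separate mice behind the replicates are not stated, so the tests below cover the variation among the 12 libraries, which may be partly technical. Below, a library is also called a liver for short, and n counts libraries.

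Chemokines are small secreted proteins that draw leukocytes along a gradient by binding receptors that couple to G proteins. The receptor decides which cells come: Cxcl1 and Cxcl2 call neutrophils through CXCR2, Cxcl9 and Cxcl10 call activated T cells and NK cells through CXCR3, Cxcl13 calls B cells through CXCR5, Ccl2 and Ccl7 call inflammatory monocytes through CCR2, and Ccl3 and Ccl4 call macrophages and T cells, with Ccl3 binding CCR1. Most of these genes are silent or low in a resting liver. Hepatocytes, Kupffer cells, sinusoidal endothelium, stellate cells and arriving leukocytes can all make them when NF-kB is switched on by cytokines such as TNF and IL-1, and Cxcl9 and Cxcl10 in addition when interferon signals.

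The 10 genes sit in clusters (GRCm38, GENCODE M21). Cxcl1 (chr5:90891241-90893115) and Cxcl2 (chr5:90903871-90905938) are neighbours within 14.7 kb, and Cxcl9 (chr5:92321347-92328079) and Cxcl10 (chr5:92346638-92348889) lie within 27.5 kb of each other. Cxcl13 stands apart on the same chromosome (chr5:95956951-95961068). Ccl2 (chr11:82035571-82037453) and Ccl7 (chr11:82045712-82047525) share a stretch of 12 kb, Ccl3 (chr11:83647844-83649355) and Ccl4 (chr11:83662584-83664683) one of 16.8 kb, and Ccl6 is at chr11:83587882-83593087. Annotated genes on the opposite strand overlap Cxcl10 (Art3), Ccl2 (Gm17268) and Ccl6 (E230016K23Rik). The sources used here do not give the strand setting of the counting, and overlap was taken over whole gene spans, not exons. Whether the counts of these 3 genes were affected by their partners is thus not known.

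Promoters of 7 of the 10 genes were in the RefSeq table (GRCm38.p6, windows of 250 bases before to 50 bases after the annotated start). Below are the stretches of 3 of them that hold the NF-kB sites, shown because these letters were found in Cxcl1, Cxcl2 and Cxcl10 and in none of the other 4. Capitals mark matches to the kappaB motif and, at the 5′ end of the Cxcl10 stretch, the ISRE core read on the other strand.
Cxcl1: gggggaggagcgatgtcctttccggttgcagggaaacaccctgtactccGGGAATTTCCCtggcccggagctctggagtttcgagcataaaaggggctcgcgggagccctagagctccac
Cxcl2: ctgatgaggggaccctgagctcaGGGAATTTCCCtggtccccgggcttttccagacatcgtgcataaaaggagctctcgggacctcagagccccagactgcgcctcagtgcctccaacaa
Cxcl10: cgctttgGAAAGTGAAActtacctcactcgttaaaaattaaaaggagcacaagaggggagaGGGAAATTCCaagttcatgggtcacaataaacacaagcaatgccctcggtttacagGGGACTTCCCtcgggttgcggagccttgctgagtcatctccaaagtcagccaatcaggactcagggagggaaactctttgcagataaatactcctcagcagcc
The Cxcl1 stretch is chr5:90891125-90891244 on the plus strand, the Cxcl2 stretch chr5:90903779-90903898 on the plus strand, and the Cxcl10 stretch chr5:92348890-92349109 on the minus strand. Cxcl1 and Cxcl2 carry the same 11 letters, a pair of overlapping kappaB matches on opposite strands, beginning 71 bases before the start in Cxcl1 and 97 bases before it in Cxcl2. Cxcl10 has separate kappaB matches beginning 159 and 103 bases before its start, and an ISRE core beginning 213 bases before it.

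The motifs were searched on both strands of all 32851 promoters in the table. The kappaB motif was present in 4.51% of them and in 3 of the 7 promoters (Cxcl1, Cxcl2 and Cxcl10). The ISRE core, TTTCNNTTTC, was in 3.44% of all promoters and in 1 of the 7 (Cxcl10). The AP-1 motif, TGANTCA, was in 7.81% of all promoters and in 2 of the 7, Cxcl9 and Cxcl10, and in the printed Cxcl10 stretch it is left in lower case. No motif overlapped another kind of motif in these promoters. Cxcl13, Ccl3 and Ccl6 had none of the 3 motifs in this window. A match is a description of letters and says nothing about binding in these livers.

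Values are the authors' normalized reads, and whole read counts could be recovered from them. The 12 libraries held 18208879 to 24352961 reads, 1 read was worth 0.753 to 1.20 normalized reads, and a floor of 3 reads corresponds to 2.26 to 3.61. Sirt2 was at 200.6 to 248.1 in KO MET/CAT and 908.4 to 1067.5 in WT MET/CAT livers, and at 125.7 to 232.6 in KO GFP and 725.8 to 923.6 in WT GFP livers. Hepatocyte markers were abundant in every library, with 0 of 10 at 0. KO GFP replicate 3 stood apart from the other libraries on the first principal component, at -89 where the others lay between -33.2 and 52.8. Its levels also followed gene length the most (Spearman's rho 0.435 across genes, against -0.334 to 0.173 in the others), a measure that can move with RNA quality. Differences between groups were tested with limma on log2(normalized reads + 1) over the 13871 genes that reached 10 normalized reads in at least 3 libraries, with Benjamini-Hochberg adjustment over all of them, and a gene is called at an adjusted p under 0.05. Fold differences are on that log2 scale throughout, which understates the change of low genes. Of the 10 chemokine genes, 9 reached the filter and Cxcl2 did not. For 4 of the 9 (Cxcl13, Ccl3, Ccl4 and Ccl7) every library that reached 10 was a MET/CAT library, so the filter itself favoured a difference, and counts over the genes that passed are given as descriptions.

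In the average over genotypes, 6 of the 9 genes tested rose in MET/CAT against GFP livers (Cxcl1, Cxcl13, Ccl2, Ccl3, Ccl4 and Ccl7). Of these 9, 0 fell, and 3.8% of all genes tested were called. For Cxcl13, Ccl3, Ccl4 and Ccl7 the filter itself favoured a difference. The amount of chemokine RNA varied widely between libraries of the same group. Between KO and WT livers none of the 9 genes tested was called under either plasmid, and 0.00721% of all genes were called under each. As these are bulk livers, more cells of a type and more RNA per cell cannot be told apart.

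**Figure D1:**
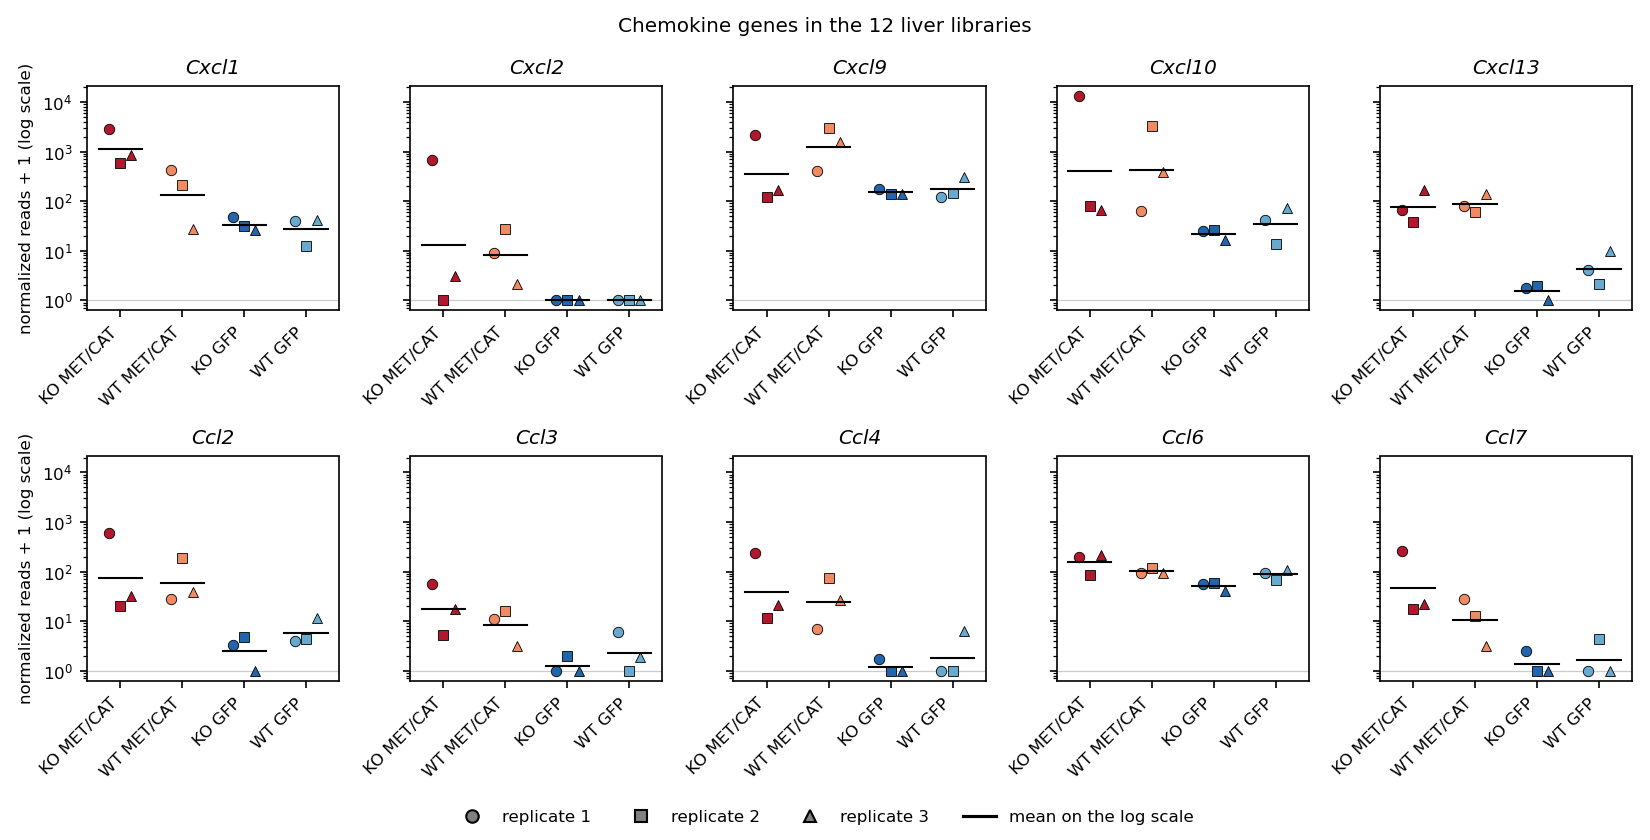
Normalized reads of the 10 chemokine genes in each of the 12 livers, 1 panel per gene, on a log scale of normalized reads + 1, with the groups KO MET/CAT, WT MET/CAT, KO GFP and WT GFP from left to right. Points are single libraries, with a symbol for each replicate number, and lines are group means on the log scale. All 6 MET/CAT livers lie above all 6 GFP livers for Cxcl13 and Ccl2, and KO MET/CAT replicate 1 is the highest library for 7 of the 10 genes.

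The neutrophil ligands Cxcl1 and Cxcl2 were compared first. Cxcl1 measured 2796, 576 and 868 normalized reads in KO MET/CAT livers and 417, 208 and 26.7 in WT MET/CAT livers. It measured 45.9, 29.8 and 25.3 in KO GFP livers and 37.9, 11.3 and 39.8 in WT GFP livers. Every KO MET/CAT liver was thus above every other liver in the study, while WT MET/CAT replicate 3 lay inside the range of the GFP livers. Cxcl1 averaged 1414 ± 1206 in KO MET/CAT, 217 ± 195 in WT MET/CAT, 33.7 ± 10.8 in KO GFP and 29.7 ± 15.9 in WT GFP livers (SD, n = 3 each). Cxcl1 rose in KO MET/CAT against KO GFP livers (log2 difference 5.06, SE 0.83, limma adjusted p = 0.01219) and in the average over genotypes (3.69, SE 0.59, limma adjusted p = 0.004583). Without KO MET/CAT replicate 1 the first of these was 4.4 and missed the threshold (limma adjusted p = 0.05258), and its adjusted p over all alternatives ran between 1.342e-06 and 0.116.

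Between the genotypes, Cxcl1 was the only one of the 10 genes whose KO MET/CAT livers were all above the WT MET/CAT livers, where 6.82% of all genes tested were ordered that way. The log2 difference of 3.06 (SE 0.83) did not pass (limma adjusted p = 0.4957). In WT MET/CAT against WT GFP livers the log2 difference of Cxcl1 was 2.32 (SE 0.83, limma adjusted p = 0.2226), and the interaction, which tests whether the MET/CAT difference depends on genotype, was 2.74 (SE 1.18, limma adjusted p = 0.3005).

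Cxcl2, the neighbour of Cxcl1, was at or near 0 reads in most livers. It had 557, 0 and 2 reads in KO MET/CAT livers, 8, 25 and 1 reads in WT MET/CAT livers, and 0 reads in each of the 6 GFP livers. The KO MET/CAT signal was thus almost wholly that of 1 liver, which supplied 99.7% of the group's normalized reads. Set against 3 reads as the floor for a whole GFP group, with no counting error in the MET/CAT reads, Cxcl2 in KO MET/CAT livers stood 237-fold above the KO GFP floor. Without KO MET/CAT replicate 1 only 2 reads were left and no fold can be given. In WT MET/CAT livers Cxcl2 stood 12.1-fold above the WT GFP floor, and 4.65-fold without WT MET/CAT replicate 2, on the 9 reads then left. With counting error included, the exact 95% lower limits of the ratio to GFP livers were 192 in KO and 9.3 in WT livers. Both limits hold counting error only, not the spread between livers, and that of 192 rests on KO MET/CAT replicate 1. Cxcl2 was under the filter on low values, and with the filter removed its log2 difference averaged over genotypes was 3.34 (SE 1.21, limma adjusted p = 0.2351).

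Neutrophil markers were higher in MET/CAT livers too. In the average over genotypes 8 of the 12 neutrophil markers tested rose and 0 fell, where 3.8% of all genes tested were called. Their median log2 difference was 2.79 against 0.02 for all genes tested. Their summed level was 2314 to 11147 normalized reads in KO MET/CAT, 1084.5 to 12384 in WT MET/CAT, 171 to 377 in KO GFP and 255 to 887 in WT GFP livers. Lcn2, an iron-scavenging lipocalin that hepatocytes also make, made up most of that sum, at 4710 ± 2969 in KO MET/CAT, 6135 ± 5469 in WT MET/CAT, 158 ± 84.1 in KO GFP and 336 ± 253 in WT GFP livers (SD, n = 3 each). Cxcr2, the receptor of Cxcl1 and Cxcl2, rose by a log2 difference of 4.06 (limma adjusted p = 0.005677), S100a8 by 2.99 (limma adjusted p = 0.002461) and Mmp8 by 4.15 (limma adjusted p = 0.003106). Cxcr2 and Mmp8 reached 10 normalized reads in MET/CAT livers alone, so the filter itself favoured a difference for both. Ly6g and Cxcr2 were at 0 in all KO GFP livers and Mmp8 in all WT GFP livers, and no marker of the list was at 0 across either MET/CAT group. Ly6g, which was under the filter, rested on 1 library in each MET/CAT group. It measured 8.43, 0 and 0 normalized reads in KO MET/CAT, 0, 5.27 and 0 in WT MET/CAT and 0, 1.13 and 0 in WT GFP livers. Without Lcn2 the sum was 378 to 3360 in the 6 MET/CAT livers and 79 to 264 in the 6 GFP livers, highest in KO MET/CAT replicate 1, which was also the liver with the most Cxcl1. The part of neutrophils in the Cxcl1 and Cxcl2 values was not tested.

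The interferon-induced ligands Cxcl9 and Cxcl10 reached the highest normalized reads of the 10 genes in single livers. Cxcl9 measured 2194, 120.3 and 169.8 normalized reads in KO MET/CAT livers and 404, 3021 and 1519.9 in WT MET/CAT livers, against 175, 137 and 136 in KO GFP livers and 118, 143 and 311 in WT GFP livers. All 3 WT MET/CAT livers were above all WT GFP livers, but KO MET/CAT replicates 2 and 3 lay inside the range of the GFP livers. The log2 difference of Cxcl9 was 1.26 (SE 0.90, limma adjusted p = 0.444) in KO and 2.82 (SE 0.90, limma adjusted p = 0.1675) in WT livers, and the value in KO livers was -0.05 without KO MET/CAT replicate 1. Averaged over genotypes it was 2.04 (SE 0.63, limma adjusted p = 0.09621). In KO MET/CAT against WT MET/CAT livers it was -1.79 (SE 0.90, limma adjusted p = 0.6545), and the interaction was -1.56 (SE 1.27, limma adjusted p = 0.5529).

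Cxcl10 had the single highest value of the study among these genes. It measured 13056, 79.5 and 64.8 normalized reads in KO MET/CAT livers, 62.8, 3217 and 394 in WT MET/CAT livers, 24.1, 25.0 and 15.4 in KO GFP livers, and 39.9, 12.5 and 71.9 in WT GFP livers. KO MET/CAT replicate 1 alone held 98.9% of its group's Cxcl10 and WT MET/CAT replicate 2 held 87.6% of its group's. The log2 difference was 4.22 (SE 1.68, limma adjusted p = 0.1857) in KO livers, 3.66 (SE 1.68, limma adjusted p = 0.3289) in WT livers and 3.94 (SE 1.18, limma adjusted p = 0.08491) in the average, none of them called. Without KO MET/CAT replicate 1 the difference in KO livers was 1.73.

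The ratio of Cxcl10 to Cxcl9 split the livers further. It was 5.95 in KO MET/CAT replicate 1 and 1.06 in WT MET/CAT replicate 2, and between 0.0873 and 0.661 in the other 10 livers. In every GFP liver Cxcl9 was the most abundant of the 10 genes by normalized reads, whereas Cxcl1 led in KO MET/CAT replicates 2 and 3 and in WT MET/CAT replicate 1. The interferon gamma gene, Ifng, was at 0 reads in KO MET/CAT, WT MET/CAT and KO GFP livers. In WT GFP livers it measured 0.997, 0 and 0 normalized reads, under the floor of 3 reads, so the groups were not separated. The part of interferon in the Cxcl9 and Cxcl10 values was not tested. T and NK cell markers, which mark the cells that carry CXCR3, were called in 0 of 12 by limma, with a median log2 difference of -0.08, and their summed level was 144 to 257 in KO MET/CAT, 118 to 275 in WT MET/CAT, 64.2 to 167 in KO GFP and 224 to 332 in WT GFP livers.

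**Figure D2:**
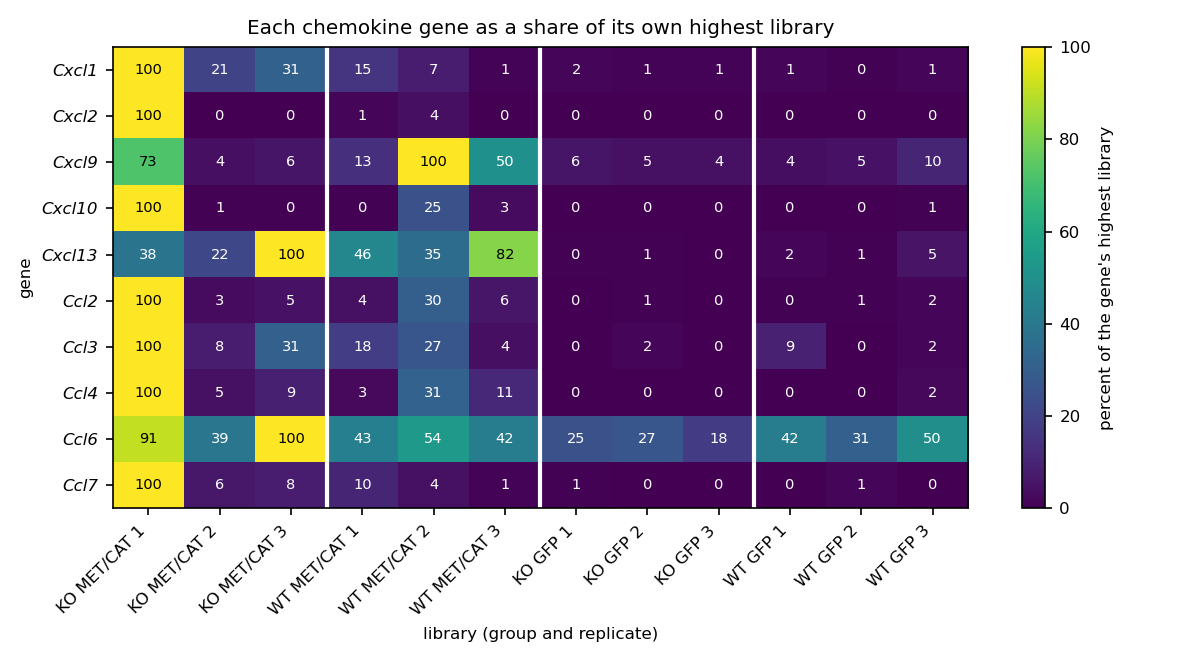
Each chemokine gene in each library as a percentage of that gene's highest library, with genes in rows and libraries in columns, KO MET/CAT, WT MET/CAT, KO GFP and WT GFP from left to right. KO MET/CAT replicate 1 is the highest library for 7 genes, WT MET/CAT replicate 2 for Cxcl9, and KO MET/CAT replicate 3 for Cxcl13 and Ccl6.

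Cxcl13, the B cell attractant that organises lymphoid follicles, was the gene called in KO livers, in WT livers and in their average. It measured 65.0, 36.6 and 169.8 normalized reads in KO MET/CAT livers and 78.7, 60.1 and 139 in WT MET/CAT livers. It measured 0.753, 0.961 and 0 in KO GFP livers and 2.99, 1.13 and 8.66 in WT GFP livers, which is 2 and 14 reads in all (exact 95% Poisson intervals 0.24 to 7.22 and 7.65 to 23.49 reads). The lowest MET/CAT liver was well above the highest GFP liver. Cxcl13 averaged 90.5 ± 70.2 in KO MET/CAT, 92.6 ± 41.2 in WT MET/CAT, 0.571 ± 0.505 in KO GFP and 4.26 ± 3.92 in WT GFP livers (SD, n = 3 each). By counts the ratio of KO MET/CAT to KO GFP livers was 159 (exact 95% interval 43.4 to 1320, counting error only) and that of WT MET/CAT to WT GFP livers 19.9 (11.6 to 36.9).

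Cxcl13 rose in KO (log2 difference 5.64, SE 0.69, limma adjusted p = 0.004062), in WT (4.34, SE 0.69, limma adjusted p = 0.01882) and in the average (4.99, SE 0.49, limma adjusted p = 0.0004013). Leaving out WT MET/CAT replicate 3, WT GFP replicate 1 or WT GFP replicate 2 ended the call in WT livers (limma adjusted p = 0.0928, 0.08587 and 0.08748), and the adjusted p over all alternatives ran between 1.038e-06 and 0.0928. The interaction was 1.30 (SE 0.98, limma adjusted p = 0.5228). KO MET/CAT and WT MET/CAT livers held 249 and 261 Cxcl13 reads, a ratio of 0.997 (0.835 to 1.19). KO GFP and WT GFP livers held 2 and 14 reads, a count ratio of 0.125 (0.0138 to 0.544), with 1 read each in KO GFP replicates 1 and 2 and in WT GFP replicate 2, and the log2 difference of -1.53 (SE 0.69) did not pass (limma adjusted p = 0.3161). Its receptor gene Cxcr5 was at 26.6 ± 7.85 in KO MET/CAT, 22.2 ± 7.23 in WT MET/CAT, 25.9 ± 4.97 in KO GFP and 35.3 ± 8.96 in WT GFP livers (SD, n = 3 each). B cell and plasma cell markers were called in 0 of 9 by limma in the average over genotypes, with a median log2 difference of -0.31. Their summed level was 334 to 481 in KO MET/CAT, 236 to 375 in WT MET/CAT, 147 to 395 in KO GFP and 484 to 571 in WT GFP livers.

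The monocyte attractants Ccl2 and Ccl7 were close to the floor in GFP livers. Ccl2 measured 613, 18.8 and 30.8 normalized reads in KO MET/CAT livers and 26.9, 185 and 37.8 in WT MET/CAT livers, against 2.26, 3.84 and 0 in KO GFP livers and 2.99, 3.40 and 10.4 in WT GFP livers. Each MET/CAT liver was above each GFP liver, and the 2 highest values came from KO MET/CAT replicate 1 and WT MET/CAT replicate 2, the same livers that were highest for Cxcl10. Ccl2 rose in the average over genotypes (log2 difference 4.09, SE 0.80, limma adjusted p = 0.01227). Within KO livers it was 4.86 (SE 1.13, limma adjusted p = 0.0527) and within WT livers 3.32 (SE 1.13, limma adjusted p = 0.1988), and neither passed. By counts, 556 reads in KO MET/CAT stood against 7 in KO GFP livers, a ratio of 101 (48.8 to 253). In WT MET/CAT livers 236 stood against 18 in WT GFP livers, a ratio of 14 (8.65 to 24). The intervals hold counting error only, not the spread between livers. KO MET/CAT replicate 1 supplied 509 of the 556 reads, and WT MET/CAT replicate 2 supplied 175 of the 236. Between the GFP groups the log2 difference of Ccl2 was -1.22 (SE 1.13, limma adjusted p = 0.5927), and its interaction was 1.54 (SE 1.60, limma adjusted p = 0.6543).

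Ccl7 measured 259, 16.7 and 21.2 normalized reads in KO MET/CAT livers and 26.9, 11.6 and 2.22 in WT MET/CAT livers. It measured 1.51, 0 and 0 in KO GFP livers and 0, 3.40 and 0 in WT GFP livers, which is 2 and 3 reads in all. All KO MET/CAT livers were above all GFP livers, while WT MET/CAT replicate 3 was not. Ccl7 rose in KO livers (log2 difference 5.11, SE 1.12, limma adjusted p = 0.04471) and in the average over genotypes (3.89, SE 0.80, limma adjusted p = 0.01627). The count ratio was 160 (43.8 to 1330) for KO MET/CAT against KO GFP and 14.2 (4.53 to 71.8) for WT MET/CAT against WT GFP livers. These intervals hold counting error only, not the spread between livers. KO MET/CAT replicate 1 supplied 215 of its group's 251 reads, and WT MET/CAT replicate 1 supplied 27 of its group's 40. Leaving out any single library other than WT MET/CAT replicate 1 or 3 ended the call in KO livers, and without KO MET/CAT replicate 1 the difference was 3.87 (limma adjusted p = 0.1412, within 0.004562 to 0.2583 over all alternatives). The log2 difference of Ccl7 was 2.67 (SE 1.12, limma adjusted p = 0.2928) in WT livers, 2.17 (SE 1.12, limma adjusted p = 0.6669) between KO MET/CAT and WT MET/CAT livers, and 2.44 (SE 1.59, limma adjusted p = 0.4579) for the interaction.

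Of the monocyte and macrophage markers, 2 of 15 rose and 0 fell in the average over genotypes, where 3.8% of all genes tested were called. Their median log2 difference was 0.60. Their summed level was 2587 to 4669 in KO MET/CAT, 3408 to 6903 in WT MET/CAT, 1884 to 2134 in KO GFP and 3027 to 3844 in WT GFP livers. The 2 were Cd14, a co-receptor for bacterial lipopolysaccharide (2.93, limma adjusted p = 0.00481), and Laptm5, a lysosomal protein of blood cells (0.66, limma adjusted p = 0.03432, a call lost in 7 of the 12 fits that left out 1 library). The receptor gene Ccr2, singled out after its values were seen, ranged from 14.5 to 26.5 in KO MET/CAT, 0.997 to 112 in WT MET/CAT, 8.65 to 20.8 in KO GFP and 10.2 to 13.0 in WT GFP livers. WT MET/CAT replicate 2 had the most Ccr2 and the most Ccl2 of its group, whereas KO MET/CAT replicate 1 had the most Ccl2 and the least Ccr2 of its group. The part of arriving monocytes in the Ccl2 and Ccl7 values was not tested.

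Ccl3 and Ccl4, ligands that activated macrophages and lymphocytes release, had 1 read each in all KO GFP livers together and 6 each in WT GFP livers. Ccl4 measured 232, 10.5 and 20.2 normalized reads in KO MET/CAT livers, 5.98, 72.8 and 25.6 in WT MET/CAT livers, 0.753, 0 and 0 in KO GFP livers, and 0, 0 and 5.20 in WT GFP livers. WT MET/CAT replicate 1 and WT GFP replicate 3 both had 6 reads, so the order of these 2 libraries rests on the scaling alone: WT MET/CAT replicate 1 was higher in normalized reads and lower in RPM, reads scaled to the library total (0.246 against 0.269 RPM). Every other MET/CAT liver was above every GFP liver. Ccl4 rose in the average over genotypes (log2 difference 4.35, SE 0.83, limma adjusted p = 0.01068), and was 4.99 (SE 1.17, limma adjusted p = 0.05311) in KO livers and 3.70 (SE 1.17, limma adjusted p = 0.1651) in WT livers. KO MET/CAT livers had 222 reads and KO GFP livers 1, a ratio of 283 (50.2 to 11200). WT MET/CAT livers had 98 and WT GFP livers 6, a ratio of 17.4 (7.72 to 48.6). Both intervals hold counting error only, not the spread between livers. KO MET/CAT replicate 1 supplied 193 of the 222 reads, and WT MET/CAT replicate 2 supplied 69 of the 98. The interaction of Ccl4 was 1.29 (SE 1.65, limma adjusted p = 0.7225).

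Ccl3 measured 55.4, 4.18 and 16.98 normalized reads in KO MET/CAT livers and 9.97, 14.8 and 2.22 in WT MET/CAT livers. In KO GFP livers it measured 0, 0.961 and 0 and in WT GFP livers 4.99, 0 and 0.866. The groups of KO livers did not overlap, those of WT livers did, and WT MET/CAT replicate 3 was under the floor of 3 reads. Ccl3 rose in the average over genotypes by a log2 difference of 2.84 (SE 0.73, limma adjusted p = 0.04814). Leaving out any single library other than KO MET/CAT replicate 2 or WT MET/CAT replicate 3 ended this call, with an adjusted p of 0.1206 without KO MET/CAT replicate 1 and of 0.0009633 to 0.1511 over all alternatives. The log2 difference was 3.80 (SE 1.04, limma adjusted p = 0.08912) in KO livers, 1.88 (SE 1.04, limma adjusted p = 0.426) in WT livers, 1.08 (SE 1.04, limma adjusted p = 0.7921) between KO MET/CAT and WT MET/CAT livers and 1.92 (SE 1.47, limma adjusted p = 0.53) for the interaction. On 66 reads in KO MET/CAT and 1 in KO GFP livers the count ratio was 84.1 (14.6 to 3370, counting error only). KO MET/CAT replicate 1 supplied 46 of the 66 reads.

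Ccl6, a CC ligand of rodent myeloid cells that binds CCR1, was well above the floor in every liver. It measured 199, 85.8 and 219 normalized reads in KO MET/CAT livers, 94.7, 118 and 92.3 in WT MET/CAT livers, 54.2, 58.6 and 38.9 in KO GFP livers, and 91.7, 66.9 and 108 in WT GFP livers. WT MET/CAT and WT GFP livers overlapped, whereas KO MET/CAT livers were all above KO GFP livers, which were all below WT GFP livers in normalized reads. In RPM, KO GFP replicates 1 and 2 (2.969 and 2.935) were above WT GFP replicate 2 (2.906). Ccl6 rose in KO MET/CAT against KO GFP livers (log2 difference 1.62, SE 0.36, limma adjusted p = 0.04509). Leaving out any single library other than KO MET/CAT replicate 2 or WT MET/CAT replicate 1 ended that call, and the adjusted p was 0.0006544 to 0.2583 over all alternatives. The interaction of Ccl6 was 1.41 (SE 0.51) with an unadjusted p of 0.01495 and did not pass (limma adjusted p = 0.2648).

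Kupffer cell markers were lower in each KO GFP than in each WT GFP liver by their sum. The summed level was 8298 to 11154 in KO MET/CAT, 7185 to 10418 in WT MET/CAT, 3848 to 7829 in KO GFP and 10121 to 13012 in WT GFP livers, and 0 of the 11 were at 0 in any group. In KO GFP against WT GFP livers 0 of 11 were called by limma, with a median log2 difference of -1.46 against -0.07 for all genes tested. KO GFP replicate 3 had the lowest level, at a mean log2 deviation of -2.03 where KO GFP replicates 1 and 2 had -0.31 and -0.30, and without it the median was -0.89 against -0.03. In the average over genotypes the scavenger receptor Marco rose (2.33, limma adjusted p = 0.01643) and the iron exporter Slc40a1 fell by 1.05 on the log2 scale (limma adjusted p = 0.007). Their part in the Ccl6 values was not tested.

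**Figure D3:**
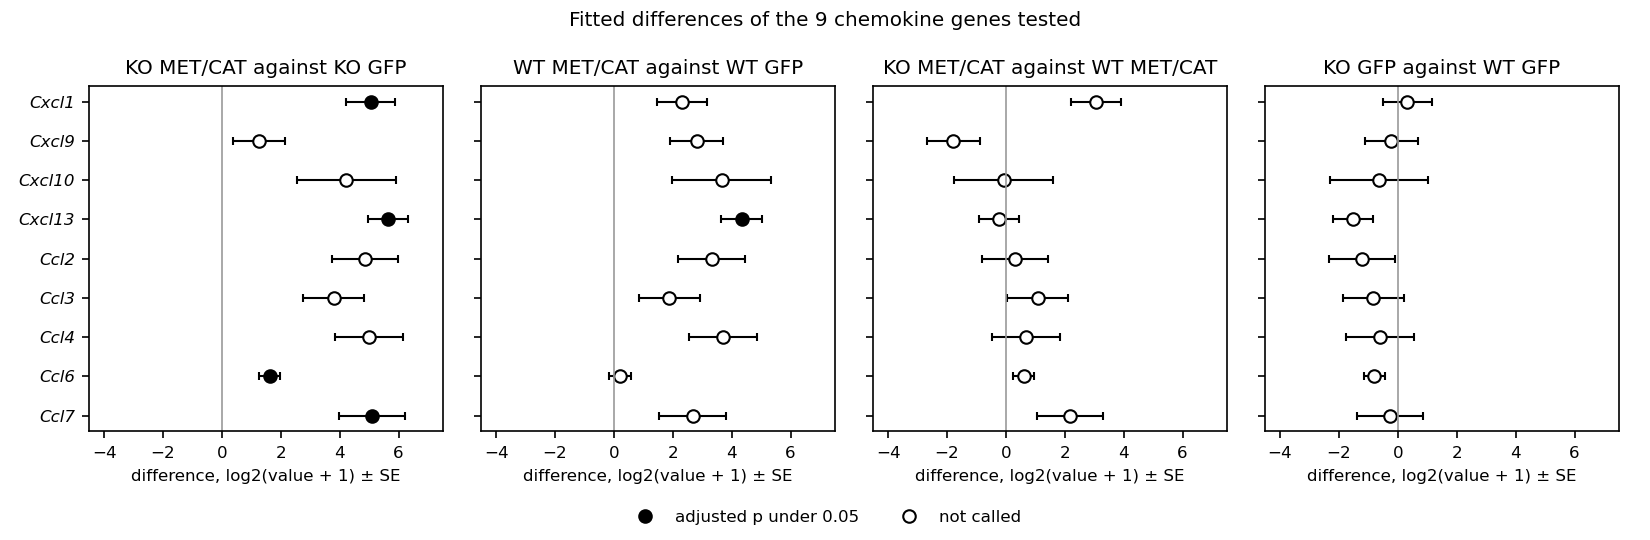
Fitted log2 differences of the 9 chemokine genes that passed the filter, with error bars of 1 SE, for MET/CAT against GFP livers within each genotype and for KO against WT livers within each plasmid. Filled points passed an adjusted p of 0.05 and open points did not. Cxcl13 is filled in both genotypes, Cxcl1, Ccl6 and Ccl7 in KO livers alone, and no point is filled for KO against WT livers, while no gene had a called interaction.

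Over the 9 genes tested, 6 were called in MET/CAT against GFP livers averaged over genotypes, where 3.8% of all genes tested were called. For Cxcl13, Ccl3, Ccl4 and Ccl7 the filter favoured a difference. In KO MET/CAT against KO GFP livers 4 were called (Cxcl1, Cxcl13, Ccl6 and Ccl7) against 1.25% of all genes, and in WT MET/CAT against WT GFP livers 1 was called (Cxcl13) against 0.339%. Of the 9 genes tested, 8 had all KO MET/CAT livers above all KO GFP livers by normalized reads, as did 14.4% of all genes tested, and 4 had all WT MET/CAT livers above all WT GFP livers, as did 10.5%. Cxcl13, Ccl2 and Ccl4 were higher in all 6 MET/CAT than in all 6 GFP livers, as were 1.61% of genes tested. In RPM, Ccl4 left both of the last 2 counts, and the others stayed. These comparisons share the GFP livers.

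Against genotype the counts were 0. In KO MET/CAT against WT MET/CAT livers limma, edgeR and DESeq2 each called 0 of the 9 genes tested, with 1, 2 and 2 at an unadjusted p under 0.05, where limma had 0.00721% of all genes called and 7.76% at an unadjusted p under 0.05. DESeq2 gave no p-value for Ccl2 in any comparison. It also gave no adjusted p for Ccl3 in KO MET/CAT against WT MET/CAT livers and for the interaction, so it could not call these there. In KO GFP against WT GFP livers all 3 tools again called 0, with 2, 1 and 2 at an unadjusted p under 0.05, against 0.00721% of all genes called by limma and 15.5% at an unadjusted p under 0.05. By normalized reads Ccl6 and Cxcl13 were the 2 genes whose KO GFP livers were all below the WT GFP livers, an order seen in 13% of genes tested. For Ccl6 that order was lost in RPM, and for Cxcl13 it set 1 read against 1 read, which are not separated. The median log2 difference of the 9 genes between KO GFP and WT GFP livers was -0.64, with 1 above 0, and -0.22 with 3 above 0 once the trend with gene length was removed. For the interaction limma, edgeR and DESeq2 called 0 of 9, with 2, 2 and 3 at an unadjusted p under 0.05, and limma called 0% of all genes (0 of 13871, with 2153, or 15.5%, at an unadjusted p under 0.05, 0 by edgeR and 155 by DESeq2). The 3 libraries in each group limit the precision of these comparisons.

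Per kilobase of exon, the order of mean levels differed between the plasmids. In KO MET/CAT livers Cxcl10 came first, at 1954 normalized reads per kb, followed by Cxcl1 at 754 and Cxcl9 at 275, and Ccl3 came last at 33.3. Without KO MET/CAT replicate 1 that order turned, with Cxcl1 first at 385, Cxcl13 second at 89.8, Cxcl9 at 48.1 and Cxcl10 at 32 normalized reads per kb. In WT MET/CAT livers Cxcl9 (546) and Cxcl10 (544) led, followed by Cxcl1 (116), and Cxcl2 came last at 5.71. In GFP livers Cxcl9 led at 49.5 in KO GFP and 63.2 in WT GFP, followed by Ccl6 at 28.2 in KO GFP and 49.6 in WT GFP, and Cxcl2 was at 0 in both. All 9 pairs of neighbours in that order overlapped between libraries in KO MET/CAT and in WT MET/CAT livers, 6 of 9 in KO GFP livers and 8 of 9 in WT GFP livers, so few neighbours were separated.

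Single livers differed in their mix of chemokines. Summed over the 10 genes, normalized reads in KO MET/CAT replicates 1, 2 and 3 were 20140.0, 949 and 1583, and in WT MET/CAT replicates 1, 2 and 3 they were 1134, 6934 and 2240.3. The 6 GFP livers summed to 215 to 304 in KO GFP and 241 to 556 in WT GFP. Cxcl10 made up 64.8% of KO MET/CAT replicate 1 and 46.4% of WT MET/CAT replicate 2, Cxcl1 made up 60.7% and 54.9% of KO MET/CAT replicates 2 and 3, and Cxcl9 made up 67.8% of WT MET/CAT replicate 3. KO GFP replicate 3 had 0 reads of 6 of the 10 genes, the most of any liver.

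Genes of the NF-kB pathway and its inducing cytokines were highest in the same livers. In the average over genotypes 12 of 29 tested rose and 0 fell, where 3.8% of all genes tested were called. The median log2 difference was 1.69. Without WT MET/CAT replicate 3, 7 rose, where 2.26% of all genes were called. Il1b, the cytokine IL-1 beta, rose by 4.09 (limma adjusted p = 0.002566), its receptor Il1r1 by 2.09 (limma adjusted p = 0.001322), Bcl3, a nuclear NF-kB cofactor, by 2.31 (limma adjusted p = 0.003571), and the bacterial lipoprotein receptor Tlr2 by 4.16 (limma adjusted p = 0.008133). The mean deviation of the list from its average over libraries, in log2 units, was 2.26, 0.02 and 0.10 in KO MET/CAT replicates 1, 2 and 3, -0.02, 1.74 and 1 in WT MET/CAT, -0.85, -1 and -1.13 in KO GFP, and -0.64, -0.83 and -0.67 in WT GFP livers. The highest was thus KO MET/CAT replicate 1, followed by WT MET/CAT replicates 2 and 3, the 3 livers with the largest sums of the 10 chemokines. Il17a was at 0 in all 4 groups. Whether these cytokines set the chemokine levels was not tested.

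**Figure D4:**
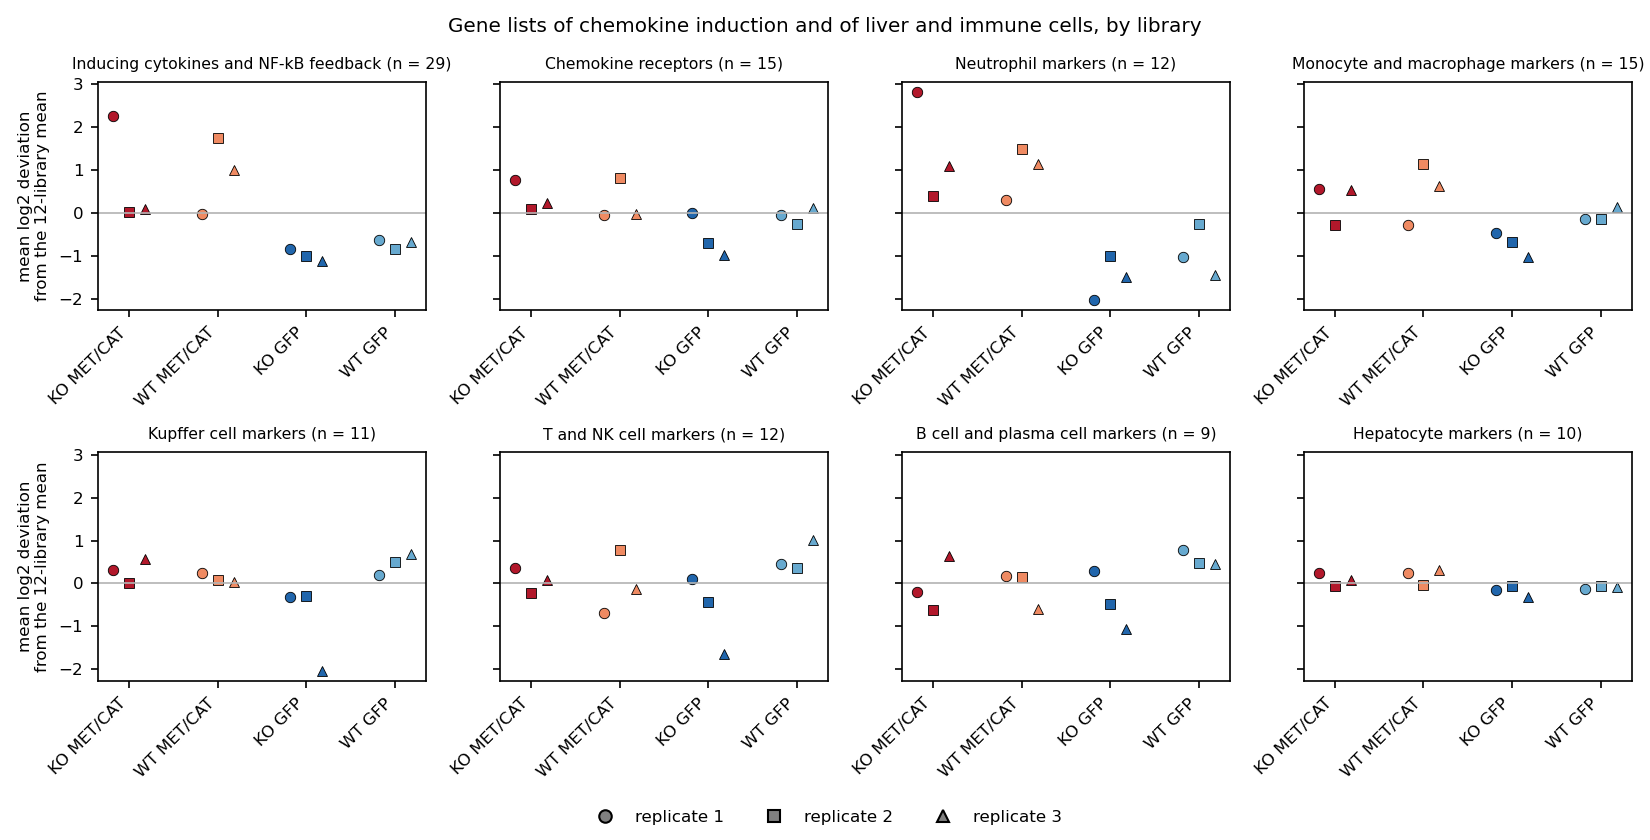
Mean log2 deviation of 8 gene lists from their average over the 12 libraries, 1 panel per list and 1 point per library, with groups in the order KO MET/CAT, WT MET/CAT, KO GFP and WT GFP. The NF-kB and cytokine list reads 2.26 in KO MET/CAT replicate 1 and between -1.13 and -0.64 in the 6 GFP livers, and neutrophil markers read 0.31 to 2.82 in the MET/CAT livers.

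Few other chemokine ligands could be tested. Of 10 other CXC ligands, 6 passed the filter, and 1 was called in the average over genotypes: Cxcl12, the ligand of CXCR4 made by stromal and sinusoidal cells, fell by 0.75 on the log2 scale (limma adjusted p = 0.006698), with 3102 ± 640 normalized reads in KO MET/CAT, 2749 ± 183 in WT MET/CAT, 5182 ± 723 in KO GFP and 4598 ± 126 in WT GFP livers (SD, n = 3 each). Cxcl11, which shares CXCR3 with Cxcl9 and Cxcl10, had a log2 difference of 2.17 that did not pass (limma adjusted p = 0.1113), and Cxcl16 1.02 (limma adjusted p = 0.05317). The 6 other CC, C and CX3C ligands tested of 18 gave 0 calls, with a median log2 difference of 0.10. Among them Ccl5, a T cell and macrophage product, was 0.64 (limma adjusted p = 0.4576) and Ccl9, a close relative of Ccl6 in the mouse, -0.25 (limma adjusted p = 0.427).

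Of 23 chemokine receptors 15 were tested, with a median log2 difference of 0.01 in the average over genotypes. In that comparison 2 rose, where 3.8% of all genes tested were called. They were Cxcr2, given above, and Ccrl2, an atypical receptor that binds chemerin without signalling (2.94, limma adjusted p = 0.03424, a call lost in 8 of the 12 fits that left out 1 library). Ccr1, the receptor of Ccl3 and Ccl6, had a log2 difference of 1.98 (limma adjusted p = 0.1042). Cxcr3, the receptor of Cxcl9 and Cxcl10, was under the filter. It measured 3.61, 0 and 0 normalized reads in KO MET/CAT and 1.99, 3.16 and 3.34 in WT MET/CAT livers. In KO GFP livers Cxcr3 measured 5.27, 6.72 and 0, and in WT GFP livers 16.0, 3.40 and 23.4. Hepatocyte, endothelial and stellate cell markers gave 0 calls of 10 each in the same comparison, dendritic cell markers 0 of 7 and blood and other tissue markers 0 of 8, while 1 of 5 cholangiocyte markers rose, Sox9 (2.11, limma adjusted p = 0.01529).

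Across the 12 libraries, log2 levels of the chemokine genes were compared with each other and with other genes tested by Pearson's r. This is a description, since the libraries share group, depth and a few extreme livers. Among the 9 genes that passed the filter the pair most alike was Ccl2 and Ccl4 (r = 0.962), followed by Cxcl10 with Ccl2 (0.932), Cxcl10 with Ccl4 (0.923) and Cxcl9 with Cxcl10 (0.908). Cxcl1 was nearest to Ccl7 (0.896) and least like Cxcl9 (0.373, the lowest of the 36 pairs). Ccl2 and Ccl7, though neighbours and ligands of the same receptor, had an r of 0.825.

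The search outside the 10 genes left out other chemokine ligands, predicted and clone-named genes, pseudogene symbols, and symbols duplicated or not in GENCODE M21. Among the genes left, the most like Cxcl1 was Junb (r = 0.951), an AP-1 subunit, followed by Socs3 (0.902), a feedback inhibitor of STAT3. Socs3 was also the nearest to Ccl7 (0.923). Spsb1 was nearest to Ccl3 (0.918), with Il1b next (0.906). Cxcl9 was most like Stk40 (0.965). The adhesion molecule Vcam1 was among the 3 genes most like Cxcl10 (0.953). Spic, a transcription factor of iron-recycling macrophages, was the nearest to Ccl4 (0.957) and came next to Clpx (0.941) for Cxcl13 (0.935). Ccl2 was most like Ppp1r18 (0.952), with the neutrophil gene S100a9 at 0.95, and Ccl6 most like Was (0.933), the cytoskeletal gene of blood cells mutated in Wiskott-Aldrich syndrome.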

How the data were processed

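Bulk RNA-seq of 12 mouse liver libraries was analysed. Reads were aligned with HISAT2 2.0.4 to GRCm38 and counted with HTSeq 0.11.2, per the submitters' processing notes. The deposited table holds a normalized signal per gene: counts divided by 1 factor per library, as the values show. Kit, strandedness and the origin of the factors: not given in the sources used here. Recovered reads were whole (within 0.01 read) for 100% of values.

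The 10 genes and all gene lists were chosen with earlier results of these data known. Symbols of 47114 of 47263 genes matched GENCODE M21. The main test was limma 3.58.1 (trend option) on log2(value + 1), with 4 group means and 12 libraries. Genes needed a value of 10 in 3 libraries. The analysis was tested on simulated data. A log2 difference is printed where a gene was called or the difference was at least 1 in size. Other genes are named by the smallest p in the averaged comparison, up to 4 per list and any called where 5 or fewer were, and the 3 most alike genes were computed for each chemokine gene. Results on some other genes are not reported here. Alternatives were pseudocounts of 0.5 and 5, no filter, a filter at 50, quantile normalization, equal totals, library quality weights, edgeR 4.0.16 and DESeq2 1.42.0 on recovered reads, a replicate block, only the groups compared, a length trend removed, and each library left out. The fit without both KO MET/CAT replicate 1 and KO GFP replicate 3 was added after seeing the data. Intervals of counts are exact Poisson or binomial at 95% and cover counting error only. Tools were R 4.3.3 and Python 3.11.15.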

Additional observations from a re-analysis of the deposited data

How the results depend on the processing

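Of 39 fitted differences of the chemokine genes, 11 were called, and 0 of those 11 changed direction under any alternative. The averaged calls of Cxcl1, Cxcl13, Ccl2, Ccl4 and Ccl7 held in all 12 fits that left out 1 library. The number of chemokine genes called was most sensitive in the comparisons within a genotype. In KO MET/CAT against KO GFP livers it was 2 with no filter, 2 with only the groups compared, 2 with the length trend removed and 7 with library quality weights, against 4 as reported, and it ranged from 1 to 5 when libraries were left out (it was 1 without KO MET/CAT replicate 1, 5 where WT MET/CAT replicate 1 was omitted, 3 without KO MET/CAT replicate 2 or WT MET/CAT replicate 3, and 2 without any other). In WT MET/CAT against WT GFP livers it was 6 with weights and 2 with DESeq2, against 1 as reported, and 0 to 2 with a library left out (2 without KO MET/CAT replicate 1, and 0 where WT MET/CAT replicate 3, WT GFP replicate 1 or WT GFP replicate 2 was omitted). In the average it was 2 with a filter at 50, which leaves 5 of the genes in the test, and 5 to 7 with a library left out. edgeR and DESeq2 on recovered reads called 6 each in KO livers and 9 and 8 in the average, where DESeq2 gave no p for Ccl2. In KO livers DESeq2 gave no p for Ccl2 and no adjusted p for Ccl3, so it could call neither. Weights also called 3 chemokine genes, all lower, in KO GFP against WT GFP livers, where they called 33% of all genes, and 2 in the interaction, 1 higher and 1 lower, against 9.91% of all genes. In KO and WT livers weights called 11.8% and 18.9% of all genes. In all 12 fits that left out 1 library, KO GFP against WT GFP, KO MET/CAT against WT MET/CAT and the interaction stayed at 0 chemokine genes called.

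Without both KO MET/CAT replicate 1 and KO GFP replicate 3, 1 gene was called in KO livers (Cxcl13), 3 in WT livers and 4 in the average, where Ccl7 (adjusted p = 0.05453, the highest of all its alternatives) and Ccl3 (adjusted p = 0.1511, likewise) were lost. Of the differences that were not called, 3 changed sign. Cxcl9 in KO MET/CAT against KO GFP livers was -0.051 without KO MET/CAT replicate 1 and -0.115 without both libraries, and ranged from -0.051 to 2.04 over single libraries left out. The interaction of Ccl2 was -0.21 with weights, -0.001 without KO MET/CAT replicate 1 and -0.664 without both libraries (range -0.001 to 2.48), and that of Ccl4 was -0.751, -0.011 and -0.146 (range -0.011 to 2.16). The cause was not tested. Of the 19 other genes given with an averaged difference, 0 changed direction. Of the 14 called, 11 were called under every alternative, Sox9 was lost without both libraries, Ccrl2 with no filter, with the replicate block, without both libraries and without KO MET/CAT replicate 1, WT MET/CAT replicates 2 or 3, KO GFP replicates 1 or 2 or any WT GFP library, and Laptm5 with equal totals, without both libraries and without KO MET/CAT replicates 1 or 2, WT MET/CAT replicate 2, KO GFP replicate 1 or any WT GFP library.

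Correlations of same-numbered libraries ran from -0.195 to 0.28, and 3 of 12 exceeded 0.1. Between KO GFP and WT GFP they were -0.023, 0.28 and 0.264 for replicates 1, 2 and 3. Crossing replicates 2 and 3 there gave -0.263 and -0.289. Whether a shared number marks a shared batch or pair was not tested. With the replicate block the chemokine genes called were 3 in KO, 1 in WT and 5 in the average, and 0 in the other 3 comparisons. Counts over all genes moved by more than 1.5 times under several settings. Library quality weights called 4575 genes in KO GFP against WT GFP, 2 in KO MET/CAT against WT MET/CAT, 2615 in WT, 1635 in KO, 2377 in the average and 1374 for the interaction, against 1, 1, 47, 174, 527 and 0 as reported, and DESeq2 called 118, 34, 567, 928, 1139 and 155. In WT livers edgeR called 73, quantile normalization 81, equal totals 71 and the length trend 127, in KO livers the groups compared alone 86, and the replicate block 7 in KO GFP against WT GFP and 2 for the interaction. With 1 library left out, counts over all genes ran from 1 to 10 in KO GFP against WT GFP, 0 to 12 in KO MET/CAT against WT MET/CAT, 3 to 372 in WT, 48 to 263 in KO, 277 to 720 in the average and 0 to 4 for the interaction. Equal totals moved the median log2 difference of all genes to -0.17 (KO), -0.122 (WT) and -0.144 (average), from 0.046, -0.014 and 0.017 as reported. The split of calls turned to 83 higher and 108 lower in KO livers (119 and 55 as reported). It was 27 and 44 in WT livers (29 and 18) and 224 and 424 in the average (333 and 194). The chemokine genes called kept their direction. At this depth a gene with fewer than 3 reads in a library cannot be told from 0.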
